A study of Rattus norvegicus with 56 samples.

Results

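The regions described here are stretches where the histone mark H3K27me3 covered a long length in every list from brain tissue without plasma. The tissue came from rats that had an intracerebral haemorrhage (bleeding inside the brain), and 4 windows that the selection sets aside as Hox clusters are left out. The H3K27me3 peaks of the 4 lists from tissue without plasma were pooled, peaks at most 1 kb apart were joined, and a joined region was kept when each of the 4 lists covered at least 5 kb of it. Of 247948 joined regions, 585 passed and lay outside the windows, and are called domains below. A further 5 regions passed the limit and lay in the windows set aside on chromosomes 3, 7 and 10, with none in the window on chromosome 4. Another 6028 regions had 5 kb or more in 1 to 3 of the lists and missed the limit in the rest, and these other wide regions are used for comparison. The domains were chosen by the covered lengths in these 4 lists, so those lengths are given as a description and support nothing. The plasma lists and the lists of the other 2 marks had no part in the choice.

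H3K27me3 is laid down by Polycomb repressive complex 2, and wide domains of it are known to lie over silent genes, many of them encoding developmental transcription factors. H3K4me3 marks the start sites of active and poised genes, and a start site that carries both H3K4me3 and H3K27me3 is called bivalent. H3K9ac, an acetyl mark, lies at active promoters and enhancers. In tissue made of many cell types, 2 marks on the same base can come from the same cells or from different ones, and these cannot be told apart here.

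Chromatin immunoprecipitation with sequencing had been done on tissue of the ipsilateral side, where the haemorrhage lay, and of the contralateral side. The rats were 13 or 21 months old by the sample labels, while the text of the series puts the older ones at 22 months. All 3 marks were profiled in the 4 groups without plasma (13 months ipsilateral and contralateral, 21 months ipsilateral and contralateral). H3K27me3 and H3K9ac were also profiled in ipsilateral tissue of 21-month rats that had received plasma of 3-month rats or plasma of 22-month rats. All groups had a haemorrhage, so none of them is an uninjured control. The labels name the tissue as brain and give no cell type, and peak lists of bulk chromatin give no expression values against which a cell type could be checked.

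There is 1 peak list per group. For a list without plasma, 2 ChIP libraries were pooled and set against 2 pooled inputs, whereas a plasma list comes from 1 ChIP library and its input. No value therefore has a spread between replicates and no difference between groups could be tested. The labels do not say whether libraries of a group came from separate animals. The intervals given are exact binomial (Clopper-Pearson) 95% intervals for shares and order-statistic 95% intervals for medians. They cover counting error over domains only, and neighbouring domains are not independent. The H3K27me3 lists rest on 35621686 to 117740131 ChIP tags kept after removal of duplicates, and come from 3 processing runs by the folders in their headers, 1 for each age and 1 for plasma, so age and plasma cannot be told apart from the run.

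The domains spanned 28.1 kb at the median, from 6.73 to 181.2 kb, and 18.98 Mb in all. All 585 lay on assembled chromosomes. The other wide regions were shorter, with a median span of 11.8 kb. Although the lists differ in length, the domains held more than 50% of the strongest peaks in 4 of the 6. By the authors' fold enrichment over local background, the 13-month ipsilateral list has 334 H3K27me3 peaks of at least 8-fold, and 245 of them (73.4%) lay in domains. The share was 51.7% of 1696 such peaks in the 13-month contralateral list, 66.8% of 663 in the 21-month ipsilateral list and 38.1% of 2853 in the 21-month contralateral list. These 4 lists chose the domains, and of all their peaks 7.36, 15.3, 3.31 and 2.78% lay there. In the plasma lists, which did not choose the domains, 63 of 105 such peaks (60%) lay in domains with plasma of 3-month rats and 12 of 97 (12.4%) with plasma of 22-month rats. In the 21-month contralateral and the 22-month plasma list most of these peaks thus lay elsewhere. In the 22-month plasma list the median fold was also lower in the domains than over the whole list, 3.21 against 3.38, whereas in the 3-month plasma list the domains had 3.43 against 3.36.

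Covered length, the number of bases under H3K27me3 peaks, differed between the 4 lists that chose the domains. The median domain had 13.7 kb covered in the 13-month ipsilateral list (interval 13.1 to 14.6 kb), 8.35 kb in the 13-month contralateral list (7.91 to 8.99 kb), 21.05 kb in the 21-month ipsilateral list (19.9 to 21.9 kb) and 19.5 kb in the 21-month contralateral list (18.1 to 20.5 kb). The 13-month contralateral list was the lowest of the 4 in 540 of 585 domains. That list also has the fewest tags of the 4, 0.497 of those in the 13-month ipsilateral list. The part of depth in the order of the lists was not tested. Of the 6028 other wide regions, 942 reached 5 kb in the 13-month ipsilateral list and 17 in the 13-month contralateral list. Most of them thus missed the limit in both 13-month lists. Peaks filled 52.6% of the domains' bases at 13 months on the ipsilateral side, 34.3% on the contralateral side, and 74.2% and 70% on the same sides at 21 months. The domains are therefore chains of peaks with gaps. The median domain held 12 peaks in each 13-month list, 15 in the 21-month ipsilateral list and 16 in the 21-month contralateral list, and its longest peak measured 4.62, 2.72, 5.95 and 4.86 kb in the same order.

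At 13 months the ipsilateral list covered more than the contralateral list in 561 of 585 domains (95.9%), beside 79.4% of all joined regions with a peak in either list. At 21 months the same held for 373 domains (63.8%), beside 35.6% of all such regions. Coverage was longer at 21 than at 13 months in 527 domains on the ipsilateral side (90.1%) and in 564 on the contralateral side (96.4%). Of all joined regions with a peak at either age on that side, the shares were 83.7% and 97.0%. Of the other wide regions with such a peak they were 97.9% and 99.5%. Among the domains, 521 had longer coverage at 21 months on both sides and 15 shorter on both, counts not taken over other regions. The median ratio of 21 to 13 months was 1.31 on the ipsilateral side and 1.945 on the contralateral side. These lists made the choice, and nothing is read from the counts beyond the order of the lists within domains.

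**Figure D1:**
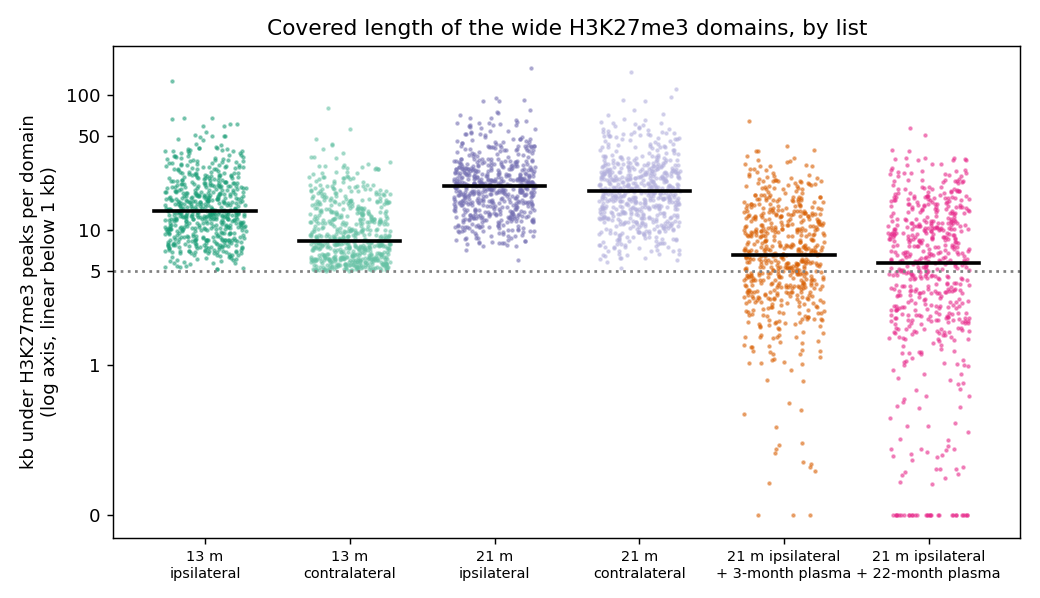
Covered length per domain (kb under H3K27me3 peaks, log axis that is linear below 1 kb) in the 6 lists; each point is 1 of 585 domains, the black line is the median and the dotted line the 5 kb limit. The 4 lists without plasma all lie at or above 5 kb by the choice of domains, whereas the plasma lists, with medians of 6.52 and 5.69 kb, reach down to 0 in 3 and 30 domains.

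The domain with the most coverage in its weakest list was chr1:264392603-264573778, which spans 181.2 kb. It had 126 kb covered at 13 months ipsilateral, 80.2 kb contralateral, and 157 and 147.5 kb on the same sides at 21 months. It had 64.3 kb with 3-month plasma and 57.3 kb with 22-month plasma. It held 3 H3K4me3 islands and a little H3K9ac in each of the 6 lists, between 0.536 and 3.72 kb. Both plasma values lay below all 4 others.

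The next domain, chr12:17097738-17203405, had 67.2, 55.6, 89.5 and 89.5 kb in the 4 lists in that order, and 38.2 and 33.0 kb with the 2 plasmas. After it came chr12:42458976-42576984, with 61.5, 46.9, 91.0 and 91.1 kb, and 38.7 and 34.0 kb with plasma. Its nearest neighbouring domain began 1.15 kb away, so the joining distance of 1 kb alone separates the pair.

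The plasma lists differed from each other in some of the first 10 domains. In chr9:84032590-84110861, with 66.1, 42.9, 67.8 and 51.1 kb, the 22-month plasma list covered more than the 3-month plasma list, 50.7 against 41.6 kb. No H3K9ac list had a peak there. In chr20:6641708-6775042, a span of 133.3 kb, coverage without plasma was 35.5, 34.0, 95.2 and 110.0 kb, but only 5.98 kb with plasma of 3-month rats and 0.721 kb with plasma of 22-month rats. Its highest fold in the 13-month ipsilateral list was 4.28, whereas the other 9 had 7.755 to 11.8 in that list. The remaining 5, chr10:83963339-84050442, chr12:42047700-42116654, chr1:264831305-264907293, chr14:80484852-80576010 and chr15:46404730-46475700, had between 34.5 kb in the weakest list and 76.9 kb in the strongest, and 17.5 to 39.0 kb with plasma.

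**Figure D2:**
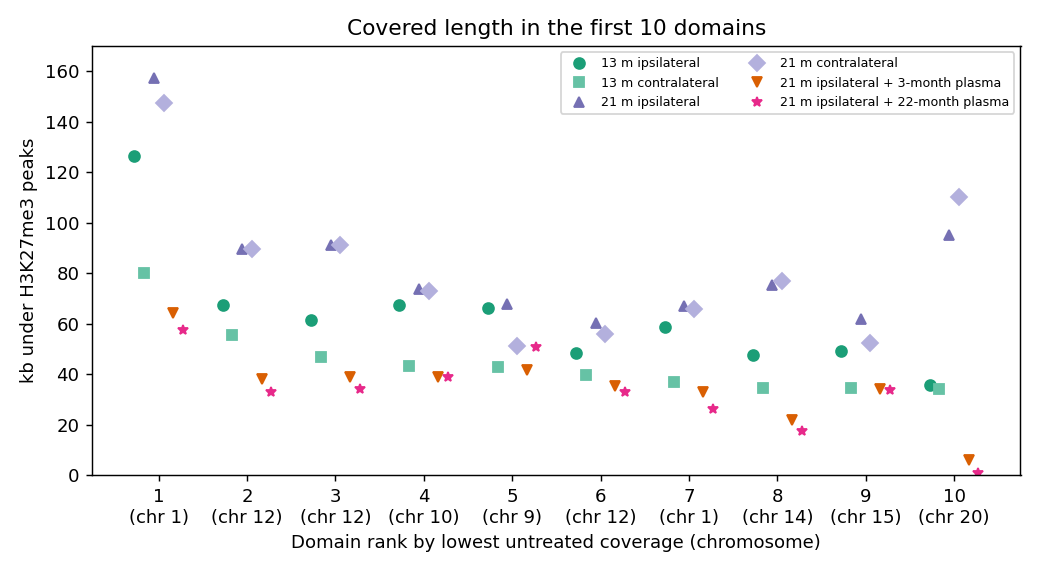
Kb under H3K27me3 peaks in the 10 domains with the most coverage in their weakest untreated list (horizontal axis, rank and chromosome); each symbol is the value of 1 list. In 9 of the 10 both plasma values lie at 17.5 kb or more, and in the domain of chromosome 20 at rank 10 they are 5.98 and 0.721 kb.

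The limit of 5 kb falls in a continuous range. The 5 domains just inside had 5 to 5.034 kb in the 13-month contralateral list, the last being chr3:170026929-170053908, and the 5 regions just outside had 4.974 to 4.996 kb in that list, the first being chr10:89687020-89710133. Just inside, coverage in the 3-month plasma list ran from 0 to 5.203 kb. Just outside it ran from 0.222 to 4.381 kb.

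Plasma groups of the same age and side had H3K27me3 peaks in nearly all domains, over a shorter length. With plasma of 3-month rats 582 of 585 domains had a peak (99.5%, interval 98.5 to 99.9%), beside 6.92% of all joined regions and 56.7% of the other wide regions. With plasma of 22-month rats 555 had one (94.9%, 92.8 to 96.5%), beside 8.21% of all regions and 41.0% of the other wide regions. Coverage of 5 kb or more was found in 362 domains with the first (61.9%, 57.8 to 65.8%) and in 317 with the second (54.2%, 50.1 to 58.3%). Over all joined regions the corresponding shares were 0.156% and 0.151%, and over the other wide regions 0.348% and 0.829%. A region chosen for long coverage in 4 lists is long, and all joined regions are mostly short, so these backgrounds are given for scale and the differences were not tested.

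The median domain had 6.52 kb covered with plasma of 3-month rats (5.85 to 7.11 kb) and 5.69 kb with plasma of 22-month rats (5.01 to 6.42 kb), against 21.05 kb without plasma in the same tissue and age. As a percentage of the domain's own length under peaks without plasma, the median was 36.6% and 31.4%, with middle ranges of 19.6 to 57.1% and 11.7 to 57.9%. No domain had more coverage with plasma of 3-month rats than without plasma, and 3 domains had more with plasma of 22-month rats. The list without plasma helped to choose the domains and had to cover 5 kb, whereas the plasma lists had no such limit. Lower values with plasma are therefore partly built in, and these counts were not taken over other regions. In the 5 regions of the windows set aside, none of them on chromosome 4, the percentages of the untreated length were 81.6 to 91.3% and 75.8 to 94.8%. Of all bases in domains, 27.1% were under peaks with 3-month plasma, 25.1% with 22-month plasma and 74.2% without plasma. In the other wide regions the shares were 4.61, 3.76 and 55.05%. The whole lists covered 17.6, 21.6 and 161.3 Mb. Relative to the list without plasma, coverage with plasma was thus higher in domains than in either comparison, which was not tested. The list without plasma has 2.82 and 2.65 times the tags of the plasma lists, 2 libraries in place of 1, and another processing run. Plasma and these differences cannot be told apart. When each H3K27me3 list was limited to its 37241 peaks of best q-value, as many as the shortest list has, the median domain had 15.9 kb without plasma, 6.52 kb with plasma of 3-month rats and 5.30 kb with plasma of 22-month rats.

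The 2 plasma lists are alike in tags kept (41700562 for 3-month and 44383604 for 22-month plasma) and share a processing run. Over the whole genome the 22-month list covered more, 21.6 against 17.6 Mb, and of all joined regions with a peak in either list 55.1% were covered more with 22-month and 44.8% more with 3-month plasma. In the domains the order was the other way round. Of 582 with a peak in either, 399 (68.6%, 64.6 to 72.3%) had more covered length with plasma of 3-month rats and 183 (31.4%) more with plasma of 22-month rats. The other wide regions had nearly the same share, 67.4% of 3806, so the order was not particular to the domains. With equal numbers of peaks the counts in domains were 442 and 139. The median difference between the lists was 0.791 kb per domain, with a middle range from -0.385 to 1.91 kb, and with 1 library on each side it has no measure of its error.

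Domains differed widely in how much of their length was under peaks with plasma. In 166 domains at least 50% of the untreated length was covered with both plasmas, and in 58 less than 10% was covered with either. These counts were not taken over other regions, and the untreated length helped to choose the domains. At the high end, chr1:203507188-203525458 was covered almost from end to end in every list, with 18.1, 15.8, 17.9 and 17.0 kb of its 18.3 kb in the 4 lists without plasma and 17.4 kb in both plasma lists. In chr2:48481144-48498324 the values were 15.8, 12.7, 13.7 and 11.2 kb, and 12.9 and 14.1 kb with plasma. In chr1:263116934-263139479 coverage with plasma of 22-month rats, 13.2 kb, exceeded the 10.8 kb without plasma. In the other high ones, chr3:142380259-142402923 and chr5:107816346-107828571, the covered length with both plasmas was 89.75 to 96.05% of that without plasma. All 5 spanned 12.2 to 22.7 kb, less than the median domain.

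At the low end, 3 domains had no peak with either plasma. In chr8:128302569-128332818 coverage without plasma was 6.37, 5.82, 21.1 and 21.8 kb, in chr19:54913778-54958864 it was 5.36, 5.62, 25.7 and 33.1 kb, and in chr20:6596289-6640097 it was 7.49, 5.03, 27.96 and 33.6 kb. The last of these lies 1.49 kb from another domain, and on its other side, 1.61 kb away, begins the domain of 133.3 kb described above. None of the 3 had an H3K4me3 peak in any list. In each of them the 13-month lists had 5.03 to 7.49 kb and the 21-month lists 21.1 kb or more. The other 2 of lowest plasma share, chr5:171655746-171700080 and chr5:172404150-172451490, had 0.217 and 0.294 kb with plasma of 3-month rats and none with plasma of 22-month rats.

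By the ratio of the covered lengths, among domains with 5 kb or more in one of the plasma lists, these lists differed most in chr5:143891308-143945249, where 5.68 kb were covered with plasma of 3-month rats and 0.290 kb with plasma of 22-month rats. The next were chr5:171877749-171940485 (9.14 and 1.00 kb), chr12:17034667-17065336 (5.85 and 0.650 kb), the domain of 133.3 kb on chromosome 20, and chr8:49431911-49460465 (5.23 and 1.09 kb). In these 5 the 3-month value was the higher. By the difference in kb the order was another, and the largest, chosen after its values were seen, was in chr1:14771479-14818656, with 17.2 kb in the 3-month and 26.4 kb in the 22-month plasma list.

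**Figure D3:**
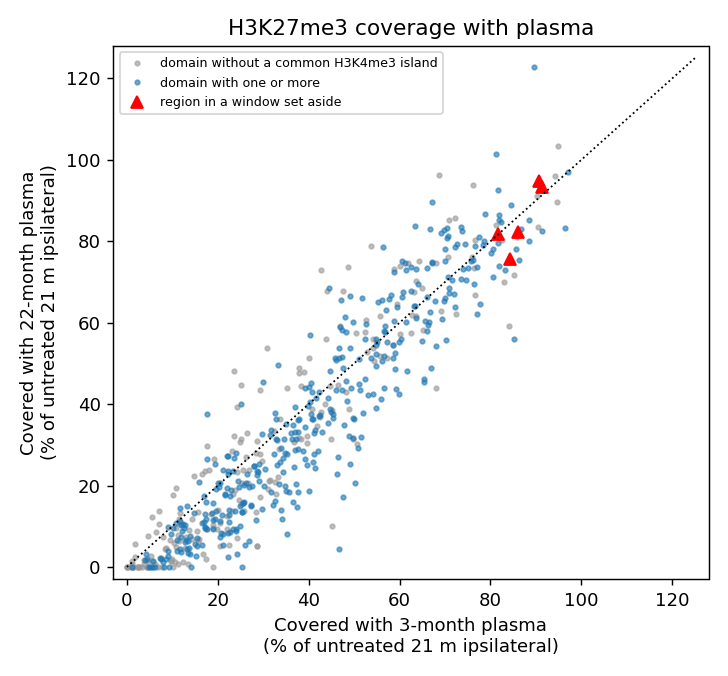
Covered length with plasma of 22-month rats (vertical axis) against plasma of 3-month rats (horizontal axis), each as a percentage of the covered length without plasma at 21 months ipsilateral. Points are 585 domains, coloured by whether they hold a common H3K4me3 island. Triangles are the 5 regions in the windows set aside, which lie on chromosomes 3, 7 and 10, and the dotted line marks equal values. The points run along the line from 0 to 97.0% on the horizontal and 122.8% on the vertical axis, the triangles lie between 75.8 and 94.8%, and 399 of the domains lie below the line.

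Coverage with plasma is also described by how densely peaks filled a domain at 13 months. The 13-month and 21-month lengths used here also chose the domains, so the values are linked by construction and support nothing. The domains were put in 4 groups by the percentage of their span under 13-month ipsilateral peaks, a split made after the values had been seen. In the 147 sparsest, with 10.99 to 40.5% of the span covered at 13 months, the median coverage was 12.5% of that without plasma in the 3-month plasma list and 6.39% in the 22-month plasma list. In the following groups it was 27.1% and 22.4%, then 45.9% and 43.4%, and in the 146 densest 69.1% and 70.5%. Of the 30 domains without a peak with plasma of 22-month rats, 27 were in the sparsest group. The densest domains were also the shortest, with a median span of 22.3 kb against 37.8 kb in the sparsest. Their strongest peak in the 13-month ipsilateral list had a median fold of 8.26 against 5.39. The 21-month contralateral list, whose coverage was 69.7 to 75% of the span in all 4 groups, did not follow this order.

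The same bases tended to carry peaks throughout. Bases under peaks in all 4 lists without plasma made up 27.9% of the domains. Of these, 69.0% were under peaks with plasma of 3-month rats and 62.4% with plasma of 22-month rats, and they held 71.0% and 69.4% of the plasma lists' bases in domains. Of the bases covered in 3 lists, 23.0% and 20.9% were under plasma peaks, and of those covered in none, the gaps of the chains, 2.77% and 3.17%. The shorter coverage with plasma thus lay mostly inside the stretches shared by the 4 other lists.

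H3K4me3 was found in most domains. A common island is a run of overlapping H3K4me3 peaks with a peak in all 4 H3K4me3 lists, and there are 18912 in all. At least 1 overlapped 378 of 585 domains (64.6%, 60.6 to 68.5%), beside 2.93% of all joined regions and 20.9% of the other wide regions. Some H3K4me3 peak in some list was present in 513 domains, beside 6.88% of all joined regions, and 72 had none. Longer regions have more room for an island, so the number per length was compared as well. The domains held 619 islands, 32.6 per Mb of span, and the other wide regions 18.0 per Mb. Of the domains 207 had no common island, 218 had 1, 107 had 2 and 53 had 3 or more.

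Islands in domains were shorter and weaker than islands outside H3K27me3. Their median length was 1246 bp, against 1671 bp for the 11092 islands outside every joined H3K27me3 region. Within each H3K4me3 list, the median of an island's highest fold was 4.03 in domains and 9.93 outside H3K27me3 at 13 months ipsilateral, 3.996 and 9.58 contralateral, 4.80 and 11.99 at 21 months ipsilateral, and 7.63 and 16.2 contralateral. The order was the same in all 4 lists. The 1466 islands of the other wide regions lay between, nearer to those in domains, with a median length of 1397 bp. Their median highest folds were 4.98, 4.83, 6.01 and 9.51 in the same order of lists. Shorter and weaker islands were thus not particular to the domains. Asking for a fold of 8 or more in each list left an island in 3.08% of domains, a share not taken over other regions.

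Domains with more islands were covered over a larger part of their length with plasma. The median percentage of the untreated length with plasma of 3-month rats was 26.2% in domains without an island, 35.7% with 1, 44.7% with 2 and 48.2% with 3 or more. With plasma of 22-month rats it was 23.7, 28.1, 37.4 and 50.8%. The median span of the 4 groups ran from 26.97 to 30.25 kb and did not rise with the number of islands. Peaks filled 52.1% of the span at 13 months ipsilateral without an island and 66.03% with 3 or more. At 13 months contralateral the values were 32.5 and 38.2%. At 21 months they were 74.75 and 73.73% ipsilateral and 72.0 and 71.79% contralateral, so density was not higher with 3 or more islands there. Density at 13 months was thus higher in domains with more islands than in those with none, and the part of each was not tested. In kb, which uses no length that chose the domains, the medians were 5.11, 6.60, 7.75 and 9.73 with plasma of 3-month rats and 4.59, 5.80, 6.85 and 8.93 with plasma of 22-month rats.

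The most islands, 7 each, were in chr1:131400204-131485854 and chr15:108878873-108933467. The first had 61.1, 26.7, 62.1 and 46.3 kb of H3K27me3 without plasma, 29.8 kb with 3-month plasma and 38.2 kb with 22-month plasma. Its H3K4me3 length was 8.85, 10, 11.1 and 16.0 kb in the 4 lists. The second had 40.9, 23.8, 39.5 and 31.2 kb of H3K27me3, 26.8 and 25.8 kb with plasma, and 12.1 to 22.1 kb of H3K4me3. Next was chr3:95677548-95725431 with 6 islands. Among several domains with 5 were chr3:22623843-22658029 and chr15:103420424-103447501. In the 5 domains named so far for their islands, the covered length with the plasmas was 45.95 to 67.8% of that without plasma.

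Among the 72 domains with no H3K4me3 peak in any list, the widest was chr10:69559024-69638785, which spans 79.8 kb. Its H3K27me3 length was 18.8, 6.62, 54.1 and 53.6 kb without plasma and 2.54 and 0.845 kb with plasma. In chr3:10444712-10517530 the lengths were 14.2, 15.4, 53.7 and 58.2 kb, with 0.677 kb and none with plasma. The other wide ones were chr5:158226013-158296146, chr1:280345585-280412067 and chr8:116194627-116258971. In all 5, both 21-month lists covered more than both 13-month lists, and plasma coverage ranged from 0 to 23.7% of the untreated length.

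H3K27me3 peaks lay on the islands and thinned out away from them. Of the bases in common islands of the domains, 91.7% were under H3K27me3 peaks at 13 months ipsilateral, 83.7% contralateral, 95.8 and 93.8% at 21 months, 72.2% with 3-month plasma and 61.8% with 22-month plasma. Of the other bases of all 585 domains, which include the 207 without an island, the shares were 50.4, 31.5, 73.0, 68.7, 24.6 and 23.0%. In the plasma lists, which did not choose the domains, the share on islands was therefore above that on other bases in both. Coverage fell from each distance class to the next in all lists but 1. With plasma of 3-month rats it was 50.5% within 1 kb of an island, 33.0% at 2 to 5 kb, 17.2% at 10 to 20 kb and 11% beyond 20 kb. With plasma of 22-month rats it was 46.4, 30.8, 16.5 and 9.73%. The exception was the 21-month contralateral list, with 63.8% at 10 to 20 kb and 64.5% beyond, and both 21-month lists stayed above 60% at every distance. The far classes hold fewer domains, 283 at 10 to 20 kb and 132 beyond 20 kb, against 378 within 1 kb. Only longer domains reach them, so distance and the change of domains cannot be told apart.

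**Figure D4:**
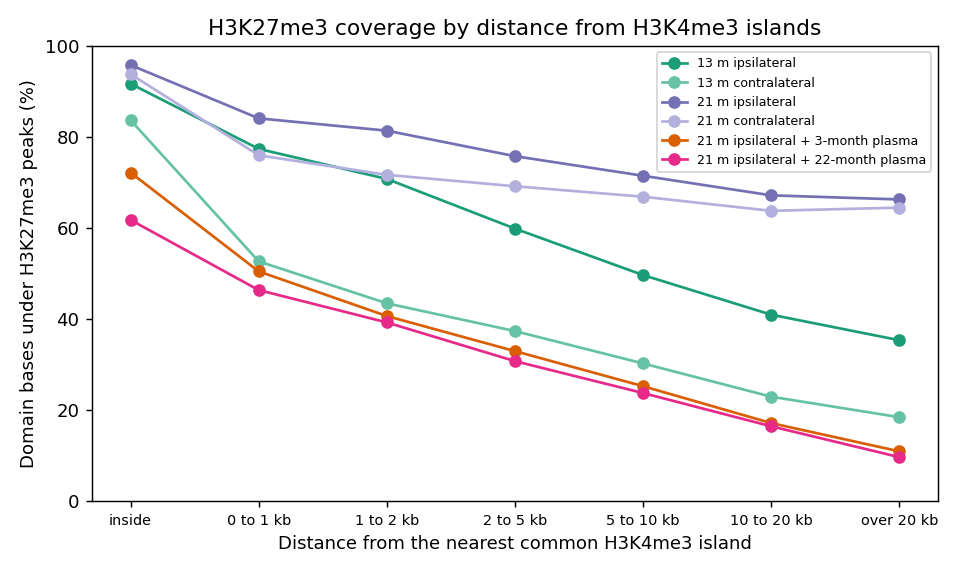
Percentage of domain bases under H3K27me3 peaks (vertical axis) in 7 classes of distance from the nearest common H3K4me3 island (horizontal axis), over the 378 domains with an island, 1 line per list. Of these domains 283 reach the class of 10 to 20 kb and 132 the class beyond. All lines are highest inside islands, at 61.8 to 95.8%, and beyond 20 kb they have spread to between 9.73% with plasma of 22-month rats and 66.3% at 21 months ipsilateral.

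The strongest H3K27me3 peak of a domain was often one that touched an island. This was so in 265 of 378 domains with an island at 13 months ipsilateral (70.1%), in 71.2% contralateral, and in 69.0% and 75.9% at 21 months. With plasma of 3-month rats it was 56.6% of the 378. With plasma of 22-month rats it was 43.1% of the 369 such domains that had a peak in that list. Of all peaks in the same domains, 12.3, 14.8, 9.92, 10.1, 20.8 and 22.7% touched an island. A longer peak has more room to touch an island, and the part of peak length was not tested.

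H3K9ac was present in many domains over short lengths. A peak was found in 355 of 585 domains at 13 months ipsilateral (60.7%, beside 5.27% of all joined regions), 436 contralateral (74.5%, beside 7.56%), 473 at 21 months ipsilateral (80.9%, beside 8.72%) and 304 contralateral (52.0%, beside 5.80%). With plasma it was 232 for 3-month (39.7%, beside 3.23%) and 505 for 22-month rats (86.3%, beside 9.97%). In the other wide regions the shares were 30.5, 41.1, 45.7, 27.9, 18.9 and 53.6% in the same order, so the lists had the same order in both kinds of region. A peak in all 4 lists without plasma was found in 271 domains (46.3%, beside 3.25% of all joined regions). The median domain had 0.326, 0.783, 1.08 and 0.201 kb of H3K9ac without plasma, none with plasma of 3-month rats and 1.54 kb with plasma of 22-month rats.

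The side with more H3K9ac in the domains was not the same at the 2 ages. At 13 months 75 of 455 domains with a peak on either side had more ipsilaterally (16.5%, 13.2 to 20.2%), beside 25.4% of all joined regions with a peak. At 21 months 451 of 480 did (94.0%), beside 68.0% of all such regions. In the other wide regions with a peak the shares were 23.9% at 13 months and 86.6% at 21 months, so the change of side was not particular to the domains. The ipsilateral list has fewer tags than the contralateral one at both ages, 19323327 against 46299770 at 13 months and 66910243 against 99213634 at 21 months. Duplicates were 82 and 55% of ChIP tags at 13 months and 22 and 13% at 21 months. The part of these differences in the counts was not tested, and age cannot be told apart from the processing run.

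With plasma, H3K9ac was longer after plasma of 22-month rats in 503 of 506 domains with a peak in either list (99.4%, 98.3 to 99.9%). Of the regions with a peak in either list, this was so in 98.2% of the other wide regions and in 89.0% of all joined regions. The 2 H3K9ac plasma lists have nearly equal tags, 57426239 with 3-month and 56130825 with 22-month plasma, but 50651 and 123863 peaks, so the whole lists differ in the same direction. With 1 library per list the difference has no measure of its error.

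On the common islands, H3K9ac was less frequent in domains than outside H3K27me3 in all 6 lists. At 13 months 67.7% of the domains' 619 islands had an H3K9ac peak on the ipsilateral side (63.8 to 71.4%) and 82.9% on the contralateral side (79.7 to 85.8%), against 95.5 and 96.8% of islands outside. At 21 months the shares in domains were 91.1 and 59.1%, against 96.3 and 97.9% outside. The 3-month plasma list had 46.2%, against 93.5% outside, and the 22-month plasma list 91.9%, against 97.4%. In the other wide regions they were 85.1, 94.4, 96.6 and 83.3% without plasma, and 71.6 and 97.0% with it. The share thus varied between lists by more in the domains than in either comparison set. Islands in domains are also shorter and weaker in H3K4me3, as given above, and the part of island strength in this was not tested.

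**Figure D5:**
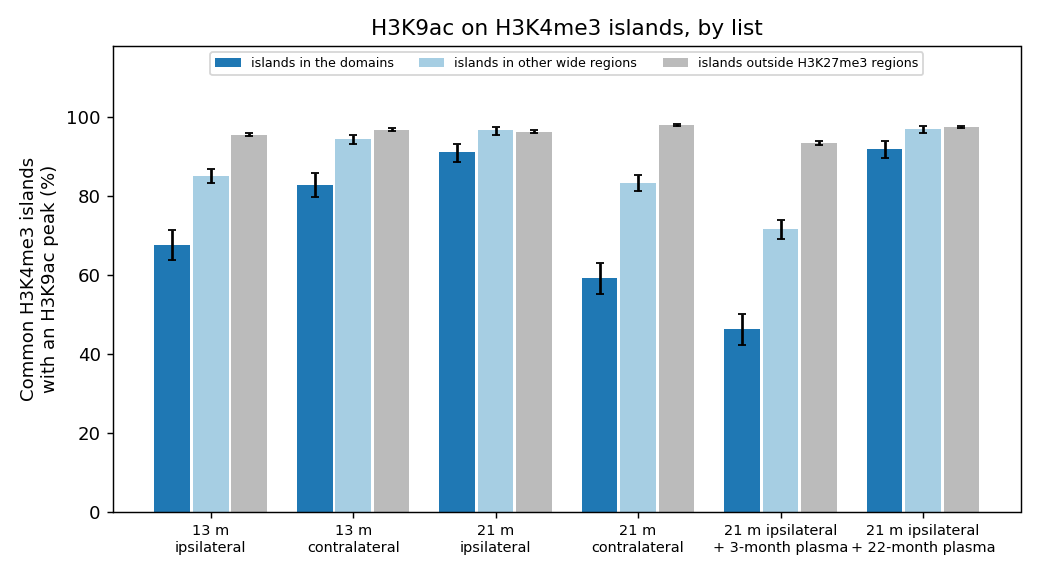
Percentage of common H3K4me3 islands that overlap an H3K9ac peak (vertical axis, from 0) in each of the 6 H3K9ac lists, for the 619 islands in domains, those in the other wide regions and the 11092 outside every H3K27me3 region; error bars are exact 95% binomial intervals over islands. The bars for islands outside stay at 93.5 to 97.9%, and those for domains run from 46.2 to 91.9%.

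A few domains carried long H3K9ac. The longest in its weakest list was chr2:121149353-121186466, with 23.8, 22.4, 18.8 and 23.5 kb without plasma, 10.2 kb with 3-month plasma and 22.6 kb with 22-month plasma, in a span of 37.1 kb. Its H3K27me3 length was 25.4, 8.17, 28.4 and 18.9 kb, and 8.99 and 9.53 kb with plasma, and it held 5 islands. In chr2:187563349-187600729 H3K9ac covered 14.4, 23.1, 19.9 and 14.8 kb, and 4.59 and 17.3 kb with plasma. The domain of chromosome 15 with 7 islands came next, with 11.2 to 13.9 kb without plasma, followed by chr14:108821415-108838182 and chr2:5550079-5586660. All 5 had H3K4me3 of 7.52 kb or more in each list, so these are stretches where the 3 marks were found together in bulk tissue.

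Along the chromosomes many domains stood close together. The median distance to the nearest other domain, edge to edge, was 220 kb, from 1.006 kb to 45370 kb. Another domain lay within 10 kb of 116 domains (19.8%, 16.7 to 23.3%), within 100 kb of 236 (40.3%) and within 1 Mb of 413 (70.6%, 66.7 to 74.3%). The other wide regions had one of their own kind within 1 Mb in 97.8%, but there are 6028 of them, so the 2 shares cannot be compared directly. Per 100 Mb of chromosome, taken up to the last peak, there were 50.6 domains on chromosome 10, 43.6 on chromosome 12, 40.9 on chromosome 20 and 36.9 on chromosome 19. Chromosome 11 had 7.74, chromosome X 3.13 with 5 domains, and chromosome Y none. The other wide regions were also densest on chromosomes 12 and 10, with 567.2 and 489.2 per 100 Mb, and sparse on chromosome X, with 6.25.

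Linking domains at most 1 Mb apart gave 293 runs, of which 172 were single domains. The 23 runs of 5 or more held 164 domains. The longest, with 15 domains each, were chr10:82913798-85055047, which includes the window set aside on that chromosome, and chr5:170981646-172451490. Their coverage with plasma differed: summed over domains it was 33.5 and 29.2% of that without plasma in the run of chromosome 10, and 10.2 and 4.39% in that of chromosome 5. The run chr1:263116934-265502702, with 13 domains and 16 common islands, includes the domain of longest coverage and had 39.8 and 36.8%. The runs chr12:41654656-44414677 and chr19:52268155-55578820 had 11 domains each, with 32.5 and 27.7%, and 19.0 and 14.6%. The run on chromosome 5 therefore had the lowest percentage of the 5 with either plasma, and it includes both domains of that chromosome named among the lowest shares.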

How the data were processed

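Members and comparisons were chosen with earlier results of these data known. Groups were taken from the labels. The authors' 16 lists (28 ChIP libraries and their inputs) come from MACS 2.1.1.20160309, per the file headers, which give narrow calling, a cutoff of 0.05 on the q-value, 2.70 Gb as effective genome size and no more than 1 tag for each position. HOMER, Bowtie2 and cutadapt are named, with no versions or roles, per the submitters' processing notes. Narrow calling can break broad H3K27me3 into many peaks. Each peak has, per the file headers, a pileup (signal, or coverage), a −log10 q-value and a fold enrichment, which is a ratio to local background. The deposited signal was not used. The authors' fold was read within a list only, and their −log10 q-value only ranked peaks.

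A genome build for the lists is not given in the sources used. Coordinates are 1-based, as in the lists, and no gene was assigned and no sequence read, so gene lists planned for an annotated build were not used, and the windows set aside were not checked against an annotation.

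Joining, covered bases, overlaps (at least 1 bp) and distances were computed with scipy 1.17.1, pandas 2.3.3 and numpy 2.4.6 under Python 3.11.15, and tested on simulated data. Named domains are the 10 of highest coverage in the weakest of the 4 lists, 5 each of highest and lowest plasma share, of largest ratio between plasma lists, with most islands, widest without H3K4me3, with most H3K9ac in the weakest list and just inside or outside the limit, and the 5 longest runs. The alternatives were a joining distance of 3 kb, a limit of 10 kb, peaks of fold 3 or more, equal numbers of peaks, and stricter islands. ChIP tags kept were 19323327 to 117740131 per list. These limit which weak peaks were called, and the lists give no read counts per domain.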

Additional observations from a re-analysis of the deposited data

Results flagged for a closer look

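The share of the domains' common H3K4me3 islands with an H3K9ac peak differed between the sides in opposite directions at the 2 ages. The ipsilateral share minus the contralateral share was -15.2 percentage points at 13 months (67.7 and 82.9%) and 32.0 at 21 months (91.1 and 59.1%). The other wide regions had the same directions, with 85.1 and 94.4% at 13 months and 96.6 and 83.3% at 21 months, and islands outside H3K27me3 had 95.5 and 96.8%, and 96.3 and 97.9%. This difference between ages was not tested, since there is 1 list per group. Tags kept were 19323327 ipsilateral and 46299770 contralateral at 13 months, and 66910243 and 99213634 at 21 months. With equal numbers of H3K9ac peaks per list, 50651, the differences were -12.8 and 40.4 points.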

How the results depend on the processing

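No paired analysis was possible because the lists pool the numbered libraries before peak calling and hold no values per library. For the same reason leaving out a replicate was not run. Values per list are in the order 13 months ipsilateral and contralateral, 21 months ipsilateral and contralateral, 3-month and 22-month plasma. A joining distance of 3 kb gave 781 domains, with medians of 16.8, 35.5 and 36.5 kb in all untreated lists but the second and 5.33 and 4.57 kb with plasma, 5 kb or more in 53.1 and 46.4%, an island in 74.8%, H3K9ac medians of 0.811, 1.59, 2.05, 0.684, 0.345 and 2.94 kb, 82.2, 73.0, 89.4, 88.5, 57.9 and 47.0% of island bases under H3K27me3, and 75.9% of domains within 1 Mb of another. A limit of 10 kb left 226 domains, with medians of 22.8, 15.5, 29.2, 26.3, 13.5 and 13.5 kb, 5 kb or more with plasma in 93.8 and 86.3%, an island in 69.9%, 94.8, 88.1, 97.3, 95.9, 80.8 and 73.0% of island bases covered, a median distance of 875.7 kb and 51.3% within 1 Mb. Peaks of fold 3 or more gave 434 domains, with medians of 12.9 kb, 17.3 and 16.2 kb at 21 months and 7.13 kb with 3-month plasma, 5 kb or more with it in 67.7%, more coverage with 3-month plasma in 73.7%, 47.5% of island bases covered with 22-month plasma, a median distance of 449.5 kb and 62.2% within 1 Mb. Equal numbers of H3K27me3 peaks, with domains chosen anew, gave 424 domains with medians of 12.9 kb, 15.6 and 12.9 kb at 21 months, 7.98 and 7.51 kb with plasma, 5 kb or more in 75 and 63.2%, more coverage with 3-month plasma in 73.6%, 94.4 and 86.6% of island bases covered at 13 months and 78.5 and 66.6% with plasma, a median distance of 449.5 kb and 60.4% within 1 Mb. The share with more coverage with 3-month plasma, 68.2% of all 585 domains, was 68.8% at 3 kb joining and 66.4% at the 10 kb limit, and above 50% in all settings. Islands of fold 8 or more in each list were in 3.08% of domains, and asking for 50% of an island inside the domain moved nothing. Chosen after seeing the data, equal numbers of peaks in the domains as they stand gave 11.8, 7.85, 15.9 and 14.0 kb without plasma and 75.6% with more coverage with 3-month plasma, and equal numbers of H3K9ac peaks gave H3K9ac medians of 0.228, 0.545 and 0.725 kb in the first 3 lists and 0.928 kb with 22-month plasma. The order of lists changed in some settings: at 3 kb joining the 21-month contralateral median passed the ipsilateral one, with equal H3K27me3 peaks and domains chosen anew the 13-month ipsilateral median (12.89 kb) passed the 21-month contralateral one (12.86 kb), and with equal H3K9ac peaks the share of islands with H3K9ac was 42.8% at 21 months contralateral, below the 46.2% of 3-month plasma. The cause of each move was not tested, apart from the smaller or larger sets of domains and peaks that the settings themselves define. The 13-month contralateral and plasma H3K27me3 lists have the fewest tags, and what depth limits in them was not tested.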
